A study of Mus musculus with 11 samples.

Results

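The Nrf2 and glutathione defence genes are 10 genes of the cellular response to oxidants and electrophiles: Nfe2l2, which encodes the transcription factor Nrf2, and Nqo1, Gclc, Gclm, Hmox1, Srxn1, Txnrd1, Gstm1, Gstp1 and Gstp2. Every array probe whose RefSeq accession belongs to one of them was taken. This gave 12 of the 56605 probes on the array and 10 of the 22911 genes that the probes name, with 1 probe for each gene except Txnrd1 and Gstm1, which had 2 probes each. All 12 probes were well above background on all 11 arrays.

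Nrf2 is held at a low level by Keap1, an adaptor that hands it to an ubiquitin ligase, and it builds up when oxidants or electrophiles modify Keap1. It then binds with a small Maf protein to the antioxidant response element of its target genes. The targets make glutathione, join it to reactive compounds, reduce quinones, break down heme and keep the thioredoxin system reduced, and the liver, which handles drugs and bile acids, holds many of them at high levels.

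The arrays measured RNA from the liver of male C57Bl6/J mice 5 days after an intraperitoneal injection of AAV8, a viral vector that enters hepatocytes readily, given at 8 weeks of age. The vectors expressed GFP, or the intracellular domain of Notch1 (NICD1) or of Notch2 (NICD2), which is the active form of the receptor, from the CMV promoter, which is not specific to a cell type. GFP mice (3 arrays) received 6e+11 vector genomes of the GFP vector. NICD1 mice (3 arrays) received 3e+11 of the NICD1 vector and 3e+11 of the GFP vector, and NICD2 mice (3 arrays) received 3e+11 of the NICD2 vector and 3e+11 of the GFP vector. The mice of the NICD1&2 group (2 arrays) received both NICD vectors at 3e+11 each, without the GFP vector. Every group was injected with the same total dose, so the amount of GFP vector fell as NICD vectors were added, and the effects of the 2 changes cannot be told apart. The labels do not say which arrays came from separate mice, so the p-values measure the spread between these arrays. Whole liver was profiled, and in such bulk samples fewer cells of a type and less RNA per cell cannot be told apart.

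A value is the log2 signal of a probe less the 75th percentile of its array, so that 0 is the level of that percentile and 1 unit is a doubling. The arrays had between 57.0% and 62.0% of their spots well above background. The 6 hepatocyte markers averaged between 8.93 and 9.22 on each of the 11 arrays. The RNA of Spp1, a gene that Notch raises in liver, was between 2.64 and 3.20 on the GFP arrays and between 4.44 and 5.29 on the NICD arrays, and it was called in NICD2 (adjusted p = 0.0270) and NICD1&2 (adjusted p = 0.0111) but not in NICD1 (adjusted p = 0.0964). Nrarp, a direct Notch target, was not well above background on any GFP array. It was at least 5.87-fold higher in NICD2 and at least 8.92-fold higher in NICD1&2, bounds set against the lowest signals well above background. The adjusted p was 0.104 and 0.0720 by limma. In NICD1 it was well above background on 2 of the 3 arrays, so no such bound can be given (adjusted p = 0.839). Leaving out 1 array ended the call of Spp1 in NICD2 (GFP 1, GFP 2, NICD2 2 or NICD2 3) and in NICD1&2 (GFP 2 or NICD1&2 2), with differences of at least 1.68 in each case. Fitting the compared groups alone ended both calls of Spp1 (adjusted p = 0.178 and 0.316), and keeping dim probes ended that in NICD2 (adjusted p = 0.0545). Spp1 was called in NICD1 with normexp and quantile normalization (adjusted p = 0.0180) and with the test limited to probes detected on every array (adjusted p = 0.0269). Nrarp was called in NICD2 and NICD1&2 without GFP 3 (adjusted p = 0.0218 and 0.0183) and with normexp and quantile normalization (adjusted p = 0.0177 and 0.00740). The probes of Notch1 and Notch2 did not mark the vectors: Notch1 was between 0.31 and 0.70 on GFP arrays, between 0.57 and 0.95 on NICD1 arrays and between 0.32 and 1.11 on NICD1&2 arrays, and Notch2 was between 1.66 and 1.86 on GFP arrays, between 1.86 and 2.06 on NICD2 arrays and between 1.75 and 1.78 on NICD1&2 arrays. In the groups without the matching vector, Notch1 was between -0.38 and 0.64 on NICD2 arrays. Notch2 was between 1.98 and 2.10 on NICD1 arrays, above every GFP array (difference 0.29, adjusted p = 0.817 by limma). Whether these probes lie within the vectors' inserts is not given in the sources used here.

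The element that Nrf2 binds was looked for in the promoters of the genes, since it is what the targets share in sequence. RefSeq promoter windows of the GRCm38.p6 build, which run from 250 bases before to 50 bases after a start site, were at hand for 8 of the 10 genes, all but Gclc and Hmox1, in 11 windows. The core TGACNNNGC was searched on both strands, and it lay in 12.4% of the 32851 windows of all genes. It lay in 4 of the 11 windows, 1 each of Nfe2l2, Gclm, Txnrd1 and Srxn1, and in none of those of Nqo1, Gstm1, Gstp1 and Gstp2. The matches are printed below 5′ to 3′ on the strand of the gene, with the matching bases in capitals. They show where the letters of the core occur and are not known sites.
Nfe2l2 (chr2:75704859-75704913, minus strand, core 240 bases before the start): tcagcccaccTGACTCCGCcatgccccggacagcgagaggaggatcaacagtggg
Gclm (chr3:122245387-122245467, plus strand, core 134 bases before the start): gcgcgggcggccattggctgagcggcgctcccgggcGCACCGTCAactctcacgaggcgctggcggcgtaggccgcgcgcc
Txnrd1 (chr10:82859078-82859158, plus strand, core 92 bases before the start): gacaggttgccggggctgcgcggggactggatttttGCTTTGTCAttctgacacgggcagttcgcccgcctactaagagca
Srxn1 (chr2:152105542-152105570, plus strand, core at base 29 after the start): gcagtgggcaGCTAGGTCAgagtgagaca
In Nfe2l2 the core reads forward, and in the other 3 genes it is the reverse complement that matches.

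The first question was whether NICD1, NICD2 or both changed these genes relative to GFP. None of the 10 did so past a threshold: 0 were called at an adjusted p under 0.05 by limma, in a setting where 0.00832% of the 36060 tested probes were called for NICD1, 0.0527% for NICD2 and 0.0998% for NICD1&2. By the definition that the study used for an altered gene, an unadjusted P under 0.15 with a fold change over 1.8, 0 of the 10 were altered, against 2.22%, 1.98% and 6.23% of all tested probes. An unadjusted p under 0.05 was reached by 1 gene for NICD1, 1 for NICD2 and 2 for NICD1&2, against 5.48%, 6.81% and 14.8% of the tested probes. The 95% interval of the difference left out a 1.8-fold change in either direction for 9 of the 10 genes in each of the 3 comparisons, Hmox1 being the exception each time.

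**Figure D1:**
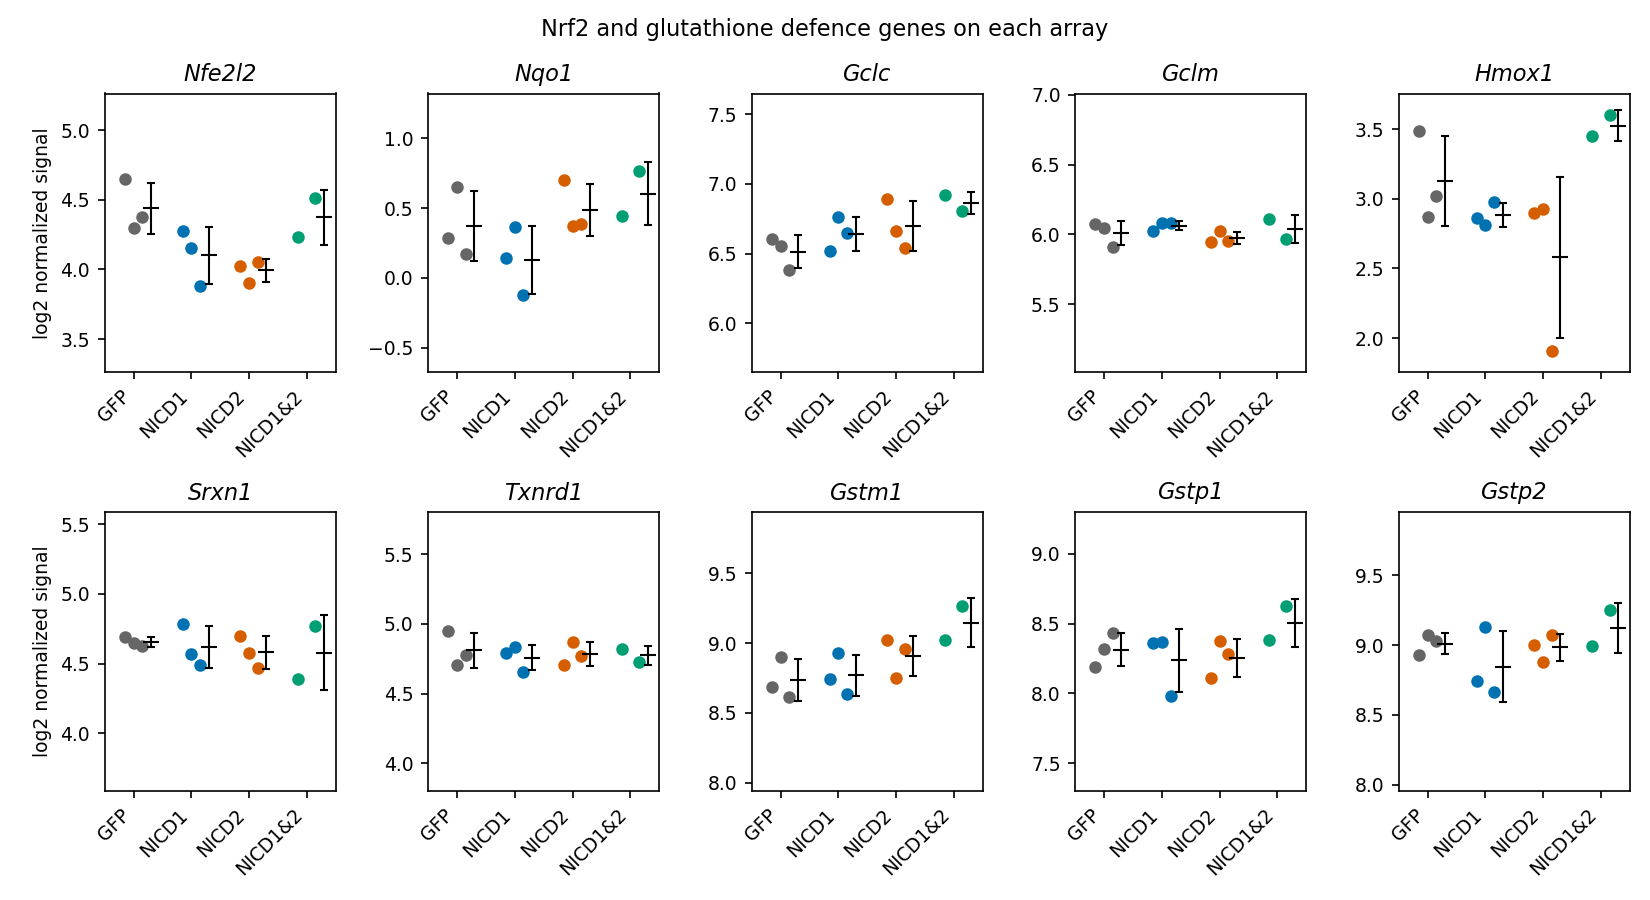
Normalized signal of the 10 genes on each array (log2, each panel spans 2 units and has its own range), by group. Points are arrays, and the black marks are group means with SD (n = 3, and n = 2 for NICD1&2). Nfe2l2 is lower on all NICD1 and NICD2 arrays than on any GFP array, Hmox1 has 1 NICD2 array at 1.91 far below the others, and Gclm varies least.

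Nfe2l2, the gene of Nrf2 itself, was lower in both groups that received a single NICD vector. The 3 GFP arrays read 4.65, 4.30 and 4.37, the NICD1 arrays 4.27, 4.15 and 3.88, and the NICD2 arrays 4.03, 3.90 and 4.05. The NICD1&2 arrays read 4.24 and 4.51. No NICD1 or NICD2 array reached the lowest GFP array, and the NICD1&2 arrays lay within and just below the GFP range. The difference from GFP was -0.34 for NICD1 (95% interval -0.66 to -0.02, adjusted p = 0.889), -0.45 for NICD2 (-0.77 to -0.12, adjusted p = 0.536) and -0.07 for NICD1&2 (-0.43 to 0.30, adjusted p = 0.847). By the brighter probe of each gene in the deposited table, Nfe2l2 was the only one of the 10 whose arrays did not overlap with GFP in the single NICD groups. Of all tested probes, 12.4% (NICD1) and 13.4% (NICD2) did not overlap in either direction, and 5.44% and 5.66% were lower without overlap. Both differences had the same sign on each slide of arrays, -0.20 and -0.36 for NICD1 and -0.51 and -0.32 for NICD2. Without GFP 1, the highest array, the NICD1 difference was -0.24 and the NICD2 difference -0.34. Under quantile normalization the NICD1&2 difference was -0.20, and both NICD1&2 arrays then lay below all GFP arrays.

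With both vectors Nfe2l2 was higher than with NICD2 alone, by 0.38 (0.02 to 0.74, adjusted p = 0.561), and the arrays of the 2 groups did not overlap. Without NICD1&2 2 this difference was 0.24. Against NICD1 the NICD1&2 difference was 0.27 (-0.09 to 0.63, adjusted p = 0.485), with overlapping arrays, and it was 0.13 without NICD1&2 2. The departure of NICD1&2 from the sum of the 2 single effects, the interaction, was 0.72 for Nfe2l2 (0.24 to 1.20), with an unadjusted p of 0.00836 and an adjusted p of 0.644 by limma.

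Gclc and Gclm encode the catalytic and the modifier subunit of glutamate-cysteine ligase, which carries out the limiting step of glutathione synthesis. Gclc read 6.61, 6.56 and 6.38 on the GFP arrays, 6.52, 6.76 and 6.65 on the NICD1 arrays, 6.89, 6.66 and 6.54 on the NICD2 arrays, and 6.92 and 6.81 on the NICD1&2 arrays. Both NICD1&2 arrays lay above all GFP arrays, as they did for 24.1% of tested probes, and the single NICD groups overlapped with GFP. The NICD1&2 difference was 0.35 (0.04 to 0.66, adjusted p = 0.300), of which 0.18 was left after quantile normalization of the arrays. Gclm was the steadiest of the genes in the deposited table. Its 11 arrays lay between 5.91 and 6.11, a range of 0.20 that is narrower than that of all but 0.344% of tested probes. The differences of Gclm from GFP were 0.05, -0.03 and 0.03 for NICD1, NICD2 and NICD1&2, and none of their 95% intervals reached below -0.23 or above 0.25. The NICD1&2 difference of Gclm was lower in other scalings, -0.15 under quantile normalization and -0.29 with normexp background correction before it.

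Nqo1 encodes a quinone reductase that is widely used as a readout of Nrf2. It read 0.28, 0.65 and 0.17 on the GFP arrays, 0.14, 0.36 and -0.12 on the NICD1 arrays, 0.70, 0.37 and 0.39 on the NICD2 arrays, and 0.44 and 0.76 on the NICD1&2 arrays. Each NICD group overlapped with GFP, and the NICD1 arrays lay below all NICD2 and NICD1&2 arrays. The difference from GFP was -0.24 for NICD1 (-0.65 to 0.17), 0.12 for NICD2 (-0.29 to 0.53) and 0.23 for NICD1&2 (-0.22 to 0.69). NICD1 was lower than NICD2 by 0.36 on the log2 scale (difference -0.36, interval -0.77 to 0.05, adjusted p = 0.999998). Single arrays moved these values. Leaving out 1 array gave -0.36 to -0.10 for NICD1 against GFP (-0.10 without GFP 2), 0.0094 to 0.26 for NICD2 (0.0094 without NICD2 1), 0.07 to 0.39 for NICD1&2 (0.07 without NICD1&2 2) and -0.48 to -0.24 for NICD1 against NICD2 (-0.24 without NICD1 3).

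Hmox1 encodes heme oxygenase 1, which Nrf2 induces and which macrophages express strongly. It was the most variable of the genes, with a pooled SD within groups of 0.36 against a median of 0.22 over all tested probes. The GFP arrays read 3.49, 2.87 and 3.02, the NICD1 arrays 2.86, 2.81 and 2.98, the NICD2 arrays 2.90, 2.93 and 1.91, and the NICD1&2 arrays 3.45 and 3.60. NICD2 3 was alone at the low end, and the other NICD2 arrays lay within the GFP range. The difference from GFP was -0.24 for NICD1 (-0.85 to 0.37, adjusted p = 0.930), -0.55 for NICD2 (-1.16 to 0.06, adjusted p = 0.779) and 0.40 for NICD1&2 (-0.29 to 1.08, adjusted p = 0.518). Without NICD2 3 the NICD2 difference was -0.21. GFP 1 was the highest GFP array, and without it the NICD1 difference was -0.06 and the NICD2 difference -0.37.

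Srxn1, which encodes sulfiredoxin and repairs overoxidised peroxiredoxins, and Txnrd1, which encodes cytosolic thioredoxin reductase, differed little from GFP in the deposited table. The 11 arrays of Srxn1 lay between 4.39 and 4.79, with both extremes among the NICD arrays and the GFP arrays close together at 4.69, 4.65 and 4.63. Its differences from GFP were -0.04, -0.08 and -0.08 for NICD1, NICD2 and NICD1&2, the last turning to 0.11 without NICD1&2 1. The brighter probe of Txnrd1 lay between 4.66 and 4.95 and differed from GFP by -0.05, -0.03 and -0.04. Its 3 intervals together spanned -0.29 to 0.22. The NICD1&2 differences depended on the scaling: under quantile normalization they were -0.22 for Srxn1, with both arrays below all GFP arrays, and -0.18 for Txnrd1, and with normexp background correction before it they were -0.37 and -0.22. The second Txnrd1 probe differed by 0.02, -0.16 and -0.21 and was lowest on NICD2 3, at 3.56, the array on which Hmox1 was lowest too.

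Gstm1, Gstp1 and Gstp2 encode glutathione transferases, which join glutathione to electrophiles. Their probes may read close paralogs, since the deposited files give no probe sequences. The brighter Gstm1 probe read 8.69, 8.90 and 8.61 on the GFP arrays, 8.74, 8.93 and 8.63 on the NICD1 arrays, 9.02, 8.75 and 8.96 on the NICD2 arrays, and 9.02 and 9.27 on the NICD1&2 arrays. Both NICD1&2 arrays were above all GFP and NICD1 arrays, while the single NICD groups overlapped with GFP. The NICD1&2 difference was 0.41 (0.08 to 0.75, adjusted p = 0.273) with this probe and 0.42 (0.06 to 0.78, adjusted p = 0.285) with the second one, which was also higher on all NICD2 arrays than on the GFP arrays, by 0.27 (-0.05 to 0.59). Under quantile normalization the NICD1&2 difference of the brighter probe was 0.16, and without NICD1&2 2 it was 0.29 (0.20 for the second probe). Quantile normalization also placed all NICD1 arrays of the brighter probe above the GFP arrays, by 0.14. Gstp1 lay between 7.98 and 8.62 and Gstp2 between 8.66 and 9.25. In the deposited table their groups overlapped with GFP in all 3 comparisons, and their differences ranged from -0.17 for Gstp2 in NICD1 to 0.19 for Gstp1 in NICD1&2. Under quantile normalization the NICD1&2 difference of Gstp2 was -0.14, with both arrays below all GFP arrays, where it was 0.11 in the deposited table, and that of Gstp1 was -0.03, or -0.14 with normexp before it.

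**Figure D2:**
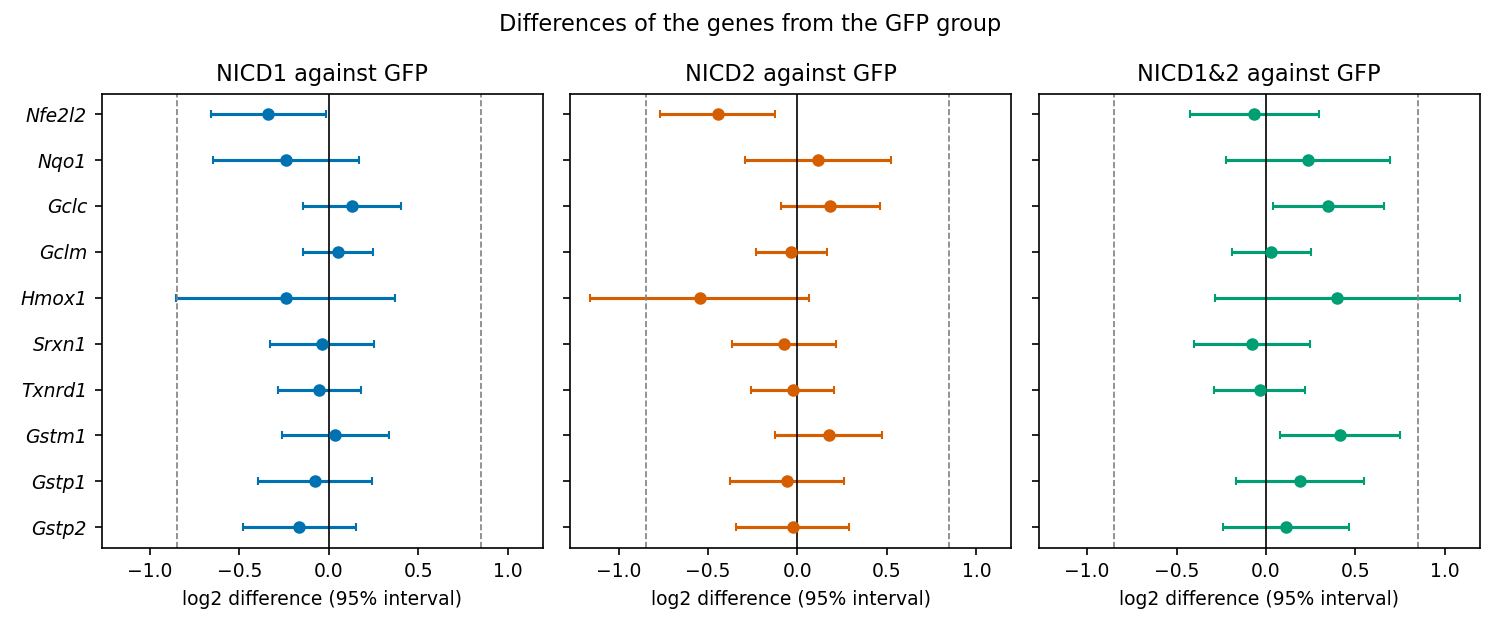
Difference of each gene from GFP (log2, x axis) with its 95% interval from limma, for NICD1, NICD2 and NICD1&2. The dashed lines are a 1.8-fold difference, and apart from those of Hmox1 no interval reaches them. The intervals that leave out 0 are those of Nfe2l2 in NICD1 and NICD2 and of Gclc and Gstm1 in NICD1&2.

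The median of the 10 genes was close to the median of all tested probes in the comparisons with GFP. It was -0.06 for NICD1 against 0.01 for all probes, -0.03 for NICD2 against 0.02, and 0.15 for NICD1&2 against 0.12. The NICD1&2 comparison as a whole was thus shifted upwards. The NICD1&2 arrays had the dimmest raw signals of the 11, with log2 75th percentiles of 7.23 and 7.14 where the other arrays had 7.28 to 7.63. Quantile normalization brought the median of all probes to 0.01 and that of the 10 genes to -0.09, and 4 of them instead of 7 were then higher than in GFP. Nqo1, Gclc, Hmox1 and Gstm1 stayed above 0 under each of the 4 scalings tried, and Nfe2l2, Srxn1 and Txnrd1 stayed below 0. Gclm, Gstp1 and Gstp2 changed sign between scalings. Of the 30 differences of the 10 genes from GFP, 25 moved by over 1.5 times or turned sign when 1 array was left out, and the 12 that turned sign were at most 0.11 in size.

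**Figure D3:**
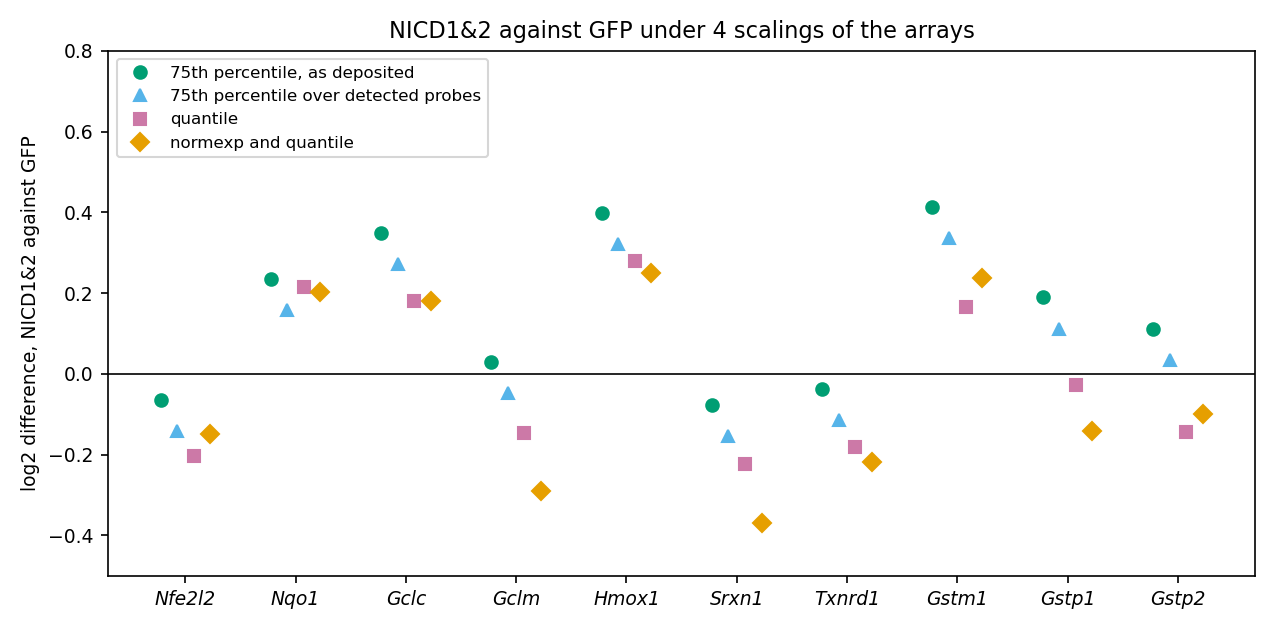
Difference between NICD1&2 and GFP (log2) of the 10 genes under 4 scalings of the same arrays: the deposited scaling to the 75th percentile, the same percentile over probes detected on every array, quantile normalization, and normexp background correction with quantile normalization. Each gene moves down from the first to the third, least for Nqo1 (0.02) and most for Gstp2 (0.25).

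The study also set the 2 receptors against each other. Between NICD1 and NICD2, 0 of the 10 genes were called, against 0.00277% of tested probes, and 0 were altered, against 1.26%. By limma 0 genes reached an unadjusted p under 0.05, against 3.74% of tested probes. The arrays did not overlap for Nqo1, lower in NICD1, and Gclm, higher in NICD1 by 0.09, against 9.31% of all tested probes. The interval of the difference left out a 1.8-fold change for 9 of the 10 genes, again all but Hmox1, whose interval was -0.31 to 0.92.

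In the deposited table most of the genes had higher values with both NICD vectors than with a single one. In NICD1&2 against NICD1, 8 of the 10 genes were higher, with a median of 0.27 against 0.10 for all probes, and the arrays of 5 genes did not overlap (Nqo1, Gclc, Hmox1, Gstm1 and Gstp1, all higher), against 22% of tested probes that were higher without overlap. Of the 10 genes 0 were called, against 0.0139%, and 0 were altered, against 2.7%, while 2 had an unadjusted p under 0.05, against 12.5%. In NICD1&2 against NICD2, 8 were again higher, with a median of 0.15 against 0.10, and 4 did not overlap (Nfe2l2, Hmox1, Gstm1 and Gstp1), against 18.1% higher without overlap, and 2 had an unadjusted p under 0.05, against 8.9%. Quantile normalization took these medians to -0.02 and 0.02, and the genes with higher, non-overlapping arrays were then Nqo1 and Hmox1 against NICD1 and Nfe2l2 and Hmox1 against NICD2, while Srxn1 was lower without overlap against NICD1 and Gstp2 against NICD2. These 3 of 10 genes in each comparison stand beside 29% and 24.9% of all probes without overlap under that normalization.

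Hmox1 was the single gene of the 10 to meet the study's definition in any comparison. It was higher in NICD1&2 than in NICD2 by 0.95 (0.26 to 1.63), with an unadjusted p of 0.0122 and an adjusted p of 0.561 by limma, in a comparison where 3.06% of tested probes were altered and 0.00277% were called. Without NICD2 3 the difference was 0.61 and no longer met the definition. It also met the definition in the interaction, at 1.19 (0.27 to 2.10, adjusted p = 0.691), or 0.85 without NICD2 3, where 3.83% of tested probes were altered. In the interaction 0 of the 10 genes and 0 of all tested probes were called, with 2 genes and 7.03% of the probes at an unadjusted p under 0.05. All 10 interactions were above 0, with a median of 0.25 against 0.07 for all probes and of -0.04 under quantile normalization.

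Kupffer cell and monocyte markers varied with Hmox1. Of the 10 markers, 0 were higher than in GFP in NICD1, 1 in NICD2 and 3 in NICD1&2, with medians of -0.28, -0.21 and -0.02 against 0.01, 0.02 and 0.12 for all probes. The mean of the 10 markers lay between 1.78 and 2.33 on the GFP arrays, 1.69 and 1.87 on the NICD1 arrays, 1.796 and 1.99 on the NICD2 arrays, and 2.08 and 2.24 on the NICD1&2 arrays. All 10 markers were higher in NICD1&2 than in NICD2, 5 of them without overlap, beside 18.1% of all tested probes, with a median of 0.17 against 0.10 for all probes, and Ccr2 was not well above background on either NICD1&2 array. Over the 11 arrays Hmox1 and the marker mean had a Pearson correlation of 0.63 and a rank correlation of 0.85, and of 0.70 and 0.84 over the 10 arrays without NICD2 3. The Pearson correlation was 0.69 over the 9 arrays left without the 2 farthest from the median of the marker mean. As deviations from the group means the correlation was 0.45. The part of these cells in the Hmox1 values was not tested.

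Nqo1 and Gstm1 varied together from array to array. Over the 11 arrays their Pearson correlation was 0.83, and it was 0.78 over the 9 arrays left without the 2 farthest from the median of Gstm1. As deviations from the group means it was 0.92. Both genes were high on GFP 2, NICD1 2 and NICD2 1 within their groups. Gstp2 followed the same order less closely, with correlations of 0.78 with Nqo1 and 0.72 with Gstm1. Nfe2l2 did not: its correlation was 0.25 with Nqo1 and 0.14 with Gstm1. These are descriptions over arrays that share a scaling, and array-wide shifts enter all of them.

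**Figure D4:**
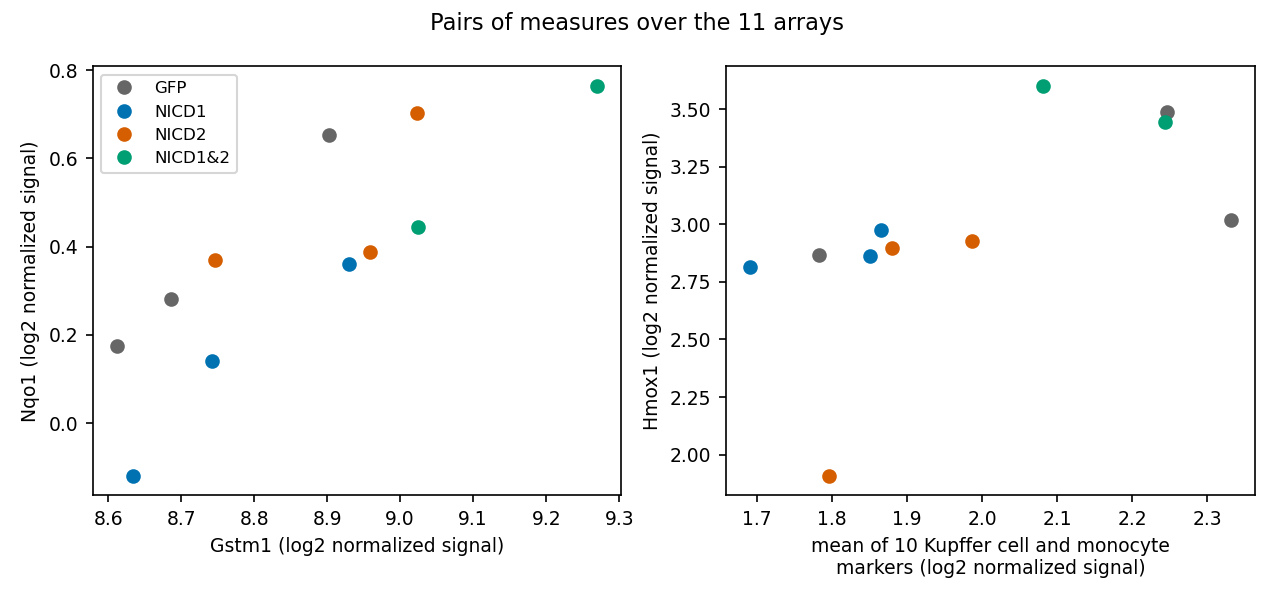
Nqo1 against Gstm1 (left) and Hmox1 against the mean of 10 Kupffer cell and monocyte markers (right), in log2 normalized signal. Each point is 1 of the 11 arrays and colours give the group. Nqo1 rises with Gstm1 inside the groups as well as across them, and in the right panel the NICD2 array at 1.91 lies below the others.

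Among all 16636 other genes, those most like Nfe2l2 over the 11 arrays were Rnf43 (Pearson correlation 0.93), Irf1 (0.93) and Qsox1 (0.92). Those most like Nqo1 were Slc27a5 (0.97), Ltc4s (0.94) and Ttc36 (0.92), and those most like Hmox1 were Lyz2 (0.92), Bmt2 (0.90) and Cdkn2d (0.89). Lyz2 encodes the lysozyme of macrophages and granulocytes and, like Hmox1, was lowest on NICD2 3, at -0.26. It was highest on the NICD1&2 arrays, at 0.38 and 0.39, whereas Hmox1 on GFP 1, at 3.49, lay between its 2 NICD1&2 arrays.

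The wider pathway was followed in 121 genes, the 10 included, of which 118 were tested. In it 0 genes were called in any comparison, with 3, 5 and 20 of the 118 at an unadjusted p under 0.05 for NICD1, NICD2 and NICD1&2 against GFP, beside 5.48%, 6.81% and 14.8% of all probes. Altered were 0.847%, 0.847% and 2.54% of the 118, below the 2.22%, 1.98% and 6.23% of all probes, and not overlapping with GFP were 11.9%, 11.9% and 36.4%, beside 12.4%, 13.4% and 34.5% of all probes.

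Of the 12 genes that control Nrf2, 0 were altered in a comparison with GFP, against 2.22%, 1.98% and 6.23% of all probes. Without overlap were 1 of them in NICD1, 2 in NICD2 and 3 in NICD1&2, against 12.4%, 13.4% and 34.5% of all probes. Mafk, a small Maf partner of Nrf2, was the 1 in NICD1 (difference -0.48, adjusted p = 0.801) and was lower in NICD2 too (-0.36, adjusted p = 0.718), where Rbx1, a subunit of the ligase to which Keap1 hands Nrf2, was higher (0.11, adjusted p = 0.939). In NICD1&2, Keap1 was lower (-0.20, adjusted p = 0.479), and Rbx1 (0.38, adjusted p = 0.261) and Nfe2l3, which encodes a factor related to Nrf2, were higher (0.53, adjusted p = 0.333). Without NICD1&2 2 the difference was -0.05 for Keap1 and 0.18 for Rbx1, and with normexp and quantile normalization it was 0.19 for Rbx1 and 0.22 for Nfe2l3. The NICD2 difference of Rbx1 was 0.07 under quantile normalization and 0.06 with normexp before it.

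In glutathione synthesis and recycling, Gss and Chac1 met the study's definition without overlap in a comparison with GFP. Gss encodes glutathione synthetase, which adds glycine after the step made by Gclc and Gclm. Its brighter probe read 5.55, 5.46 and 5.67 on the GFP arrays, 5.58, 5.96 and 5.62 on the NICD1 arrays, 6.03, 6.01 and 6.13 on the NICD2 arrays, and 6.21 and 6.73 on the NICD1&2 arrays. All NICD2 and NICD1&2 arrays were above all GFP arrays. The difference from GFP was 0.91 in NICD1&2 (0.51 to 1.30, adjusted p = 0.115), which met the study's definition, 0.49 in NICD2 (adjusted p = 0.520) and 0.16 in NICD1 (adjusted p = 0.927). The second Gss probe gave 0.85, 0.62 and 0.20. Under the 3 other scalings the NICD1&2 difference of Gss was 0.83, 0.72 and 0.59, short of 1.8-fold, and without NICD1&2 2 it was 0.65. Its adjusted p fell under 0.05 with normexp and quantile normalization (0.0145) and without NICD1&2 1 (difference 1.16, adjusted p = 0.0394).

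Chac1, whose product breaks glutathione down, read 0.38, 1.99 and 1.04 on the GFP arrays, 0.99, 2.90 and 3.33 on the NICD1 arrays, 2.24, 2.89 and 2.44 on the NICD2 arrays, and 2.28 and 2.49 on the NICD1&2 arrays. It met the study's definition in all 3 groups, at 1.28 (adjusted p = 0.903), 1.39 (adjusted p = 0.718) and 1.25 (adjusted p = 0.394), and the NICD1 arrays overlapped with GFP. Without GFP 1, its lowest array, the NICD1&2 difference was 0.87 and no longer met the definition, nor did it without GFP 3, without either NICD1&2 array or with array weights. In NICD1 the definition was not met without GFP 1, without NICD1 2 or without NICD1 3. Cbr1, a carbonyl reductase, was higher in NICD1&2 at 0.86 (0.38 to 1.34, adjusted p = 0.174), or 0.84 without GFP 1 and 0.52 without NICD1&2 2, both short of 1.8-fold. It was short of it too under the 3 other scalings (0.78, 0.68 and 0.70), with the slide as a block (0.82) and, narrowly, with array weights (0.8473). Its GFP arrays read 5.12, 5.15 and 5.23 and its NICD1&2 arrays 5.69 and 6.37.

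No other gene of these lists met the study's definition in a comparison with GFP. The 20 other glutathione transferases tested had medians of -0.13, 0.05 and 0.17 for NICD1, NICD2 and NICD1&2, the 18 genes of thioredoxin, peroxiredoxin and superoxide defence -0.06, -0.02 and 0.13, the 9 genes of NADPH supply -0.05, -0.08 and 0.19, and the 28 other Nrf2 targets -0.04, -0.01 and 0.17. The 4 NICD1&2 medians were a little above the 0.12 of all probes. Over all 118 tested genes of the pathway the NICD1&2 median depended on the scaling. It was 0.15 in the deposited table, 0.07 with the percentile over probes detected on all arrays (0.04 for all probes), -0.02 under quantile normalization (0.01 for all probes) and -0.0025 with normexp and quantile normalization.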

How the data were processed

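Gene expression was measured on 11 Agilent 1-colour arrays. Per the file headers, the scanner files hold processed signals, intensities from which Feature Extraction 11.5.1.1 had subtracted background, and flags for spots well above background. The deposited table holds log2 values that the authors scaled to the 75th percentile in GeneSpring. On each array at least 56355 of 56605 probes equalled the log2 mean signal less a constant within 0.001. The table was used as deposited. Its 75th percentile scaling sets array-wide differences in brightness to 0.

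A probe was tested if at least 2 of the 11 arrays, without regard to group, had it well above background (36060 probes, 16637 named genes). Probes were named through RefSeq accessions, with 32994 of 56605 matched. limma 3.58.1 (R 4.3.3; lmFit, then eBayes) estimated the 4 group means from the 11 arrays together, and p-values were adjusted by Benjamini-Hochberg over all tested probes. The script was tested on simulated data. A gene was represented by its brightest tested probe. Precision is limited by how few arrays there are, and an exact permutation of 3 arrays against 3, or of 2 against 3, cannot give a p below 0.1. Promoters were searched with Python 3.11.15.

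The 10 genes, the lists and the tests were chosen with earlier results of these data known. Besides the 10 genes, named were genes of the pathway, heme and iron, Notch and cell type lists that met the study's definition without overlap in a comparison with GFP, and the 3 genes most like Nfe2l2, Nqo1 and Hmox1. Genes outside this rule (Notch1, Notch2, Mafk, Keap1, Rbx1, Nfe2l3, Ccr2) were named after their values were seen. Groups came from the labels. Alternatives were other scalings, background correction, filters, probes, call rules, array weights, the compared groups alone, the slide or the replicate number as a block, and leaving out each array.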

Additional observations from a re-analysis of the deposited data

Results flagged for a closer look

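Nqo1 lay below the GFP mean on every NICD1 array and above it on every NICD2 and NICD1&2 array. The distance was 0.00028 on NICD2 2 and -0.0081 on NICD1 2, both close to 0. The NICD1 effect was -0.24 on the log2 scale, the NICD2 effect 0.12 and the NICD1&2 effect 0.23, so that NICD1 differed from NICD2 by -0.36 (adjusted p = 0.999998 by limma) and from NICD1&2 by -0.48 (adjusted p = 0.392). Hmox1 lay below the GFP mean on every NICD1 and NICD2 array and above it on both NICD1&2 arrays. This rests on GFP 1: without it the NICD1 effect was -0.06, and NICD1 3 lay above the mean of the other GFP arrays. Its effects were -0.24, -0.55 and 0.40, so that NICD1 differed from NICD1&2 by -0.64 (adjusted p = 0.418) and NICD2 from NICD1&2 by -0.95 (adjusted p = 0.561). All these effects share the GFP arrays, and none of the differences passed the adjusted test.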

How the results depend on the processing

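The count of called genes among the 10 was 0 in each comparison under every alternative. Of 1200 differences of the 10 genes under alternatives, 109 had the other sign, the largest of them 0.31 in size (Hmox1 in NICD1 against NICD2, -0.03 without NICD2 3), and 77 moved by more than 1 SD between replicates. With quantile normalization the median of the 10 was -0.086 for NICD1&2 against GFP, -0.021 against NICD1, 0.017 against NICD2, 0.053 for NICD1 against NICD2 and -0.043 for the interaction. With normexp and quantile normalization the first 3 were -0.12, -0.025 and 0.0087 and the interaction -0.064, and with the 75th percentile over probes detected on all arrays it was 0.073 for NICD1&2 against GFP and 0.20 against NICD1. The cause was not tested. The count of altered genes in NICD1&2 against NICD2, 1 in the report, was 0 with normexp and quantile normalization, with P under 0.05 and fold over 2, with an adjusted p under 0.15 and fold over 1.8, which also gave 0 for the interaction, and with the replicate block. Leaving out 1 array gave medians from -0.12 to 0.011 for NICD1 against GFP, from -0.073 to 0.052 for NICD1 against NICD2, from 0.071 to 0.27 for NICD1&2 against GFP, from 0.15 to 0.40 against NICD1, from 0.12 to 0.27 against NICD2, and from 0.13 to 0.38 for the interaction, the highest values of the last 4 being those without NICD1&2 1. It gave 0 (without NICD2 3) to 1 altered genes for NICD1&2 against NICD2 and 1 to 2 for the interaction (2 without NICD1&2 1).

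The replicate numbers did not pair the arrays: the deviations of 15 pairs with the same number correlated between -0.41 and 0.17, with a median of 0.04. With the replicate block the medians were -0.06, -0.03 and 0.12 for NICD1, NICD2 and NICD1&2 against GFP, and 0 genes were called. With 2 NICD1&2 arrays and at most 3 in the other groups, differences of the size of the spread between arrays cannot be settled. All 12 probes were well above background on every array, but normexp background correction before quantile normalization still moved NICD1&2 differences, such as that of Srxn1 from -0.22 to -0.37.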

Other observations

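Of the marker and check lists, few genes met the study's definition without overlap in a comparison with GFP. Hes1, a Notch target, was higher in NICD2 by 1.64 (adjusted p = 0.419) and in NICD1&2 by 1.36 (adjusted p = 0.280), and Sox9, a bile duct and Notch-responsive gene, was higher in NICD1&2 by 1.16 (adjusted p = 0.197). With normexp and quantile normalization the differences of Hes1 were 0.74 and 0.50 and that of Sox9 was 0.73, and the second Sox9 probe gave 0.58 and the first 0.62 without NICD1&2 1, all short of 1.8-fold. Lyve1, a marker of sinusoidal endothelium, was higher in NICD2 by 0.86 (adjusted p = 0.285) and in NICD1&2 by 0.93 (adjusted p = 0.162). The differences were 0.67 and 0.77 with normexp and quantile normalization, short of 1.8-fold, although the adjusted p of the latter was then 0.0351. The NICD2 difference of Lyve1 was 0.79 without GFP 1, 0.73 without GFP 2, 0.78 without NICD2 3, 0.80 with array weights and 0.83 with the percentile over detected probes, and the NICD1&2 difference was 0.80 without GFP 2 and 0.84 without NICD1&2 2. The endothelial markers as a list did not rise: 3 of the 6 were higher than in GFP in NICD2 and 3 in NICD1&2. Their medians were -0.0033 and -0.0055 against 0.02 and 0.12 for all probes. Without overlap, 1 was higher and 1 lower in NICD2, beside 13.4% of all probes in either direction. In NICD1&2, 1 was higher and 2 were lower, beside 34.5%. Retnlg, a neutrophil gene, was lower in NICD1 (difference -0.99, adjusted p = 0.741) and in NICD1&2 (-1.11, adjusted p = 0.189). Cxcr2, another neutrophil gene, was well above background on 2 of the 3 GFP arrays and lowest on GFP 1, at -5.14, and its fitted difference in NICD1&2 was 0.92 (adjusted p = 0.356). With normexp and quantile normalization the differences of Retnlg were -0.27 and -0.27 and that of Cxcr2 was 0.19. Retnlg was short of 1.8-fold in NICD1 without GFP 1 (-0.74) and in NICD1&2 without NICD1&2 1 (-0.78). Cxcr2 was short of it under quantile normalization (0.63), with the percentile over detected probes (0.84) and with array weights (0.72). So it was without GFP 1 (0.44) and without NICD1&2 1 (0.67). The mean of the neutrophil markers tested lay between -2.50 and -2.40 on the GFP arrays, between -2.81 and -2.45 on the NICD1 arrays, between -2.37 and -2.31 on the NICD2 arrays and between -2.56 and -2.14 on the NICD1&2 arrays. Among the 10 genes of heme and iron handling 0 were altered in the comparisons with GFP, against 2.22%, 1.98% and 6.23% of all probes, with medians of -0.01, 0.06 and 0.20 against 0.01, 0.02 and 0.12.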
